A study of Mus musculus with 16 samples.

Results

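The regions described here are stretches of mouse transcripts in which an m6A peak was listed in every one of 8 IP libraries, from sham-operated cortex through 24 h of reperfusion. Peaks of the 8 lists that had at least 1 exonic base in common on the same strand were joined, which gave 52778 regions, and 4735 of these (8.97%) held a peak of every list. Membership therefore rests on the peak calls themselves, so that presence in every list is the choice made here and not a finding. The other extreme was the commoner one, with 27763 regions found in 1 list, while 1958 regions were found in 7 lists.

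In MeRIP-seq an antibody enriches RNA fragments that carry N6-methyladenosine (m6A), and the enriched pool (IP) is sequenced together with the starting fragments (input). The samples were cerebral cortical peri-infarct tissue of male C57BL/6J mice, 6 to 8 weeks old at surgery, without any transgene or virus: sham-operated mice (Sham) and mice with 2 h of middle cerebral artery occlusion and then no reperfusion (MCAO/R-0 h), 6 h of it (MCAO/R-6 h) or 24 h of it (MCAO/R-24 h). Each of the 4 groups had 2 IP libraries and thus 2 lists; the methods give 6 mice per surgery group, and the labels do not say whether the 2 libraries of a group came from separate mice, so the spread between replicates may be technical. The tissue was bulk cortex, in which fewer cells of a type and less RNA per cell cannot be told apart. The inputs were not analysed here, and the lists hold no read counts, so that RNA abundance and sequencing depth are unknown.

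m6A is written onto nascent RNA by the Mettl3 and Mettl14 methyltransferase and its partners, mostly within RRACH, a 5-base word in which R is A or G and H is A, C or T. It is known to gather near stop codons, in 3′ UTRs and in long internal exons, and it is read by YTH-domain proteins that act on mRNA decay and translation. In neurons, transcripts for synaptic and signalling proteins are known carriers of the mark.

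The 8 protein-coding genes whose region kept the highest place in all lists, and the leading regions of the comparisons with Sham, were searched for GGAC, the core of the most common m6A word. The site shown for each is the GGAC nearest the middle of the bases covered in all 8 lists, with the 10 bases before it and the 11 after it, 5′ to 3′ on the transcribed strand of GRCm39, and the capitals mark GGAC. A GGAC in these bases is a match of letters and not a mapped m6A site. The first 5 are from regions at the top of every list:
Slitrk4, CDS, chrX:63315053-63315077, minus strand: gcaacccttgGGACtgcacctgcga
Nlgn1, 3′ UTR, chr3:25487382-25487406, minus strand: tatgcacaagGGACacaccaatgga
Zfp451, 3′ UTR, chr1:33840869-33840893, minus strand: ggtaaactgaGGACtagcaaagttt
Arhgap5, CDS, chr12:52563085-52563109, plus strand: ggactctctgGGACtgaaaaagaca
Smim10l1, 3′ UTR, chr6:133083113-133083137, plus strand: aaaaatagtgGGACtatgtgaagat
The next 3 are from regions that ranked higher (Plppr5) or lower (Frmd4b, Maf) than in Sham at some time of reperfusion:
Plppr5, 3′ UTR, chr3:117480389-117480413, plus strand: taaagatgtaGGACactttttataa
Frmd4b, 3′ UTR, chr6:97265148-97265172, minus strand: ccctgggggaGGACttgccttccaa
Maf, 5′ UTR, chr8:116434444-116434468, minus strand: ccttggcccaGGACttgcaattttg

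The bases of Slitrk4 covered in all 8 lists held 8 GGAC sites and 7 on the opposite strand, those of Zfp451 held 8 and 4, and those of Nlgn1 held 4 and 1. Klf9 had no GGAC, with 2 on the opposite strand, but 14 RRACH words in 450 shared bases, and Zhx1 had no GGAC but 2 RRACH words in 175. Rpl36al, which encodes a ribosomal protein and has near-identical copies in the genome, had neither word in its 405 shared bases, while the opposite strand held 5 RRACH words and 3 GGAC, and 254 of the 455 bases of its region were also covered by peaks on that strand, where exons of Mgat2 lie.

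The strand of a peak is the one written in the lists, and whether the libraries kept strand is not given in the sources used here. Of the 4735 regions, 199 (4.20%) had most of their bases, 50% or more, also covered by peaks of the opposite strand, as had 4.39% of the regions in 7 lists and 3.43% of those in 1 list. In the regions without any such overlap the listed strand held 18.6 RRACH words per kb against 12.02 on the reverse, whereas in the 199 it held 15.8 against 14.2. For these regions it cannot be told apart which of the overlapping genes carried the mark.

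Most regions lay in mRNAs. Of the 4735, 4453 (94.0%) were in protein-coding genes, 229 in lncRNA genes and 17 in other gene types, and 36 lay outside any exon of their strand. The 4453 regions belonged to 3194 genes, 28.3% of the 11301 protein-coding genes with a peak in any list. A further set of genes had a peak in every list but not at the same place, since 4033 protein-coding genes were listed in all 8. Genes with a region in all 8 lists had longer transcripts, with a median of 4979 nt and a coding sequence of 1830 nt, against 3492 nt and 1455 nt in genes with peaks but no such region.

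One region per gene was the rule, and a few very long coding exons held many. Of the 3194 genes 2312 had 1 region, 648 had 2, 146 had 3 and 88 had 4 or more. Cep350 (a centrosomal protein) and Fat3 (an atypical cadherin) had 9 each, of which only 2 and 1 lay in their largest exons of 3764 and 5433 nt. Ahnak, a giant scaffold protein, had all of its 8 regions in an exon of 17498 nt. Apc, which restrains Wnt signalling, had 7 in its last exon of 10548 nt. The histone methyltransferase Ash1l and the transcription elongation factor Ice1 also had 7 each, of which 5 and 6 lay in exons of 4558 and 4698 nt. The zinc finger protein Hivep1 had 6, of which 5 lay in an exon of 5939 nt. Regions in the same gene shared a transcript and were not independent.

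The lncRNA members included several near the top of every list. Sox2ot, which surrounds the neural stem cell gene Sox2, had a pair of regions of 75 nt whose lowest rank percentiles were 99.34 and 99.32. The first held 2 RRACH words on the listed strand and 0 on the opposite one, and the second held 0 and 4. Meg3, an imprinted lncRNA, had a region with rank percentiles from 88.2 to 95.5. These 2 genes were chosen after their values were seen.

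The regions were long and their common part was short. Joined over all lists, their median length was 575 nt, with quartiles of 375 and 825 nt and extremes of 30 and 7296 nt. An exonic base covered in all 8 lists existed in 3805 regions (80.4%), and the median length of that common part over all 4735 was 100 nt. Regions in 7 lists had a median joined length of 375 nt and those in 1 list 75 nt. Each list covered a median of 300 to 375 nt of a region. For the regions without a common base, the ranks compared between lists belong to neighbouring peaks that touched only through a chain of others.

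Transcript position differed on average between the peaks in these regions and the pooled other peaks of the same lists. The 2 sets also differed in size and strength. Median peak lengths per list were 200 to 250 nt in the regions and 75 to 100 nt in the other peaks. Median rank percentiles were 67.8 to 78.2 and 36.3 to 39.3. The part of peak length in the values below was not tested. The 3′ UTR held 37.3% ± 0.275 (SD over the 8 lists) of the peaks in regions of all 8 lists and 31.0% ± 1.77 of the other peaks, higher in 8 of 8 lists. The last exon held 68.3% ± 0.209 against 50.3% ± 2.59, and the window of 200 nt on either side of the stop codon held 23.7% ± 0.288 against 18.4% ± 0.599. Internal exons of 400 nt or more held 23.02% ± 0.293 of the peaks on transcripts with several exons, the base also of the last exon share, against 16.9% ± 0.694, and the 5′ UTR held 3.04% ± 0.137 against 6.23% ± 0.445. Each of these differences had the same sign in all 8 lists (two-sided exact sign-flip test over the lists, p = 0.00781, the smallest that 8 lists can give, and 0.00912 after Benjamini-Hochberg adjustment over 7 features). The CDS share did not differ beyond the spread, at 54.9% ± 0.414 against 53.8% ± 2.49 (adjusted p = 0.25, same test), and turned to −3.63 percentage points when only the higher-scoring 50% of each list was compared (adjusted p = 0.0234). The peaks in the regions are largely the same bases in every list, so these p-values cover the spread over lists only and not the choice of regions. Counted by region, those in 7 lists came close to those in all 8 for some features. Within 200 nt of the stop codon lay 25% and 25.45%, and in internal exons of 400 nt or more 22.43% and 23.27%. Further apart were the last exon, at 58.53% and 65.06%, the 3′ UTR, at 35.65% and 38.94%, and the 5′ UTR, at 4.42% and 3.24%.

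**Figure D1:**
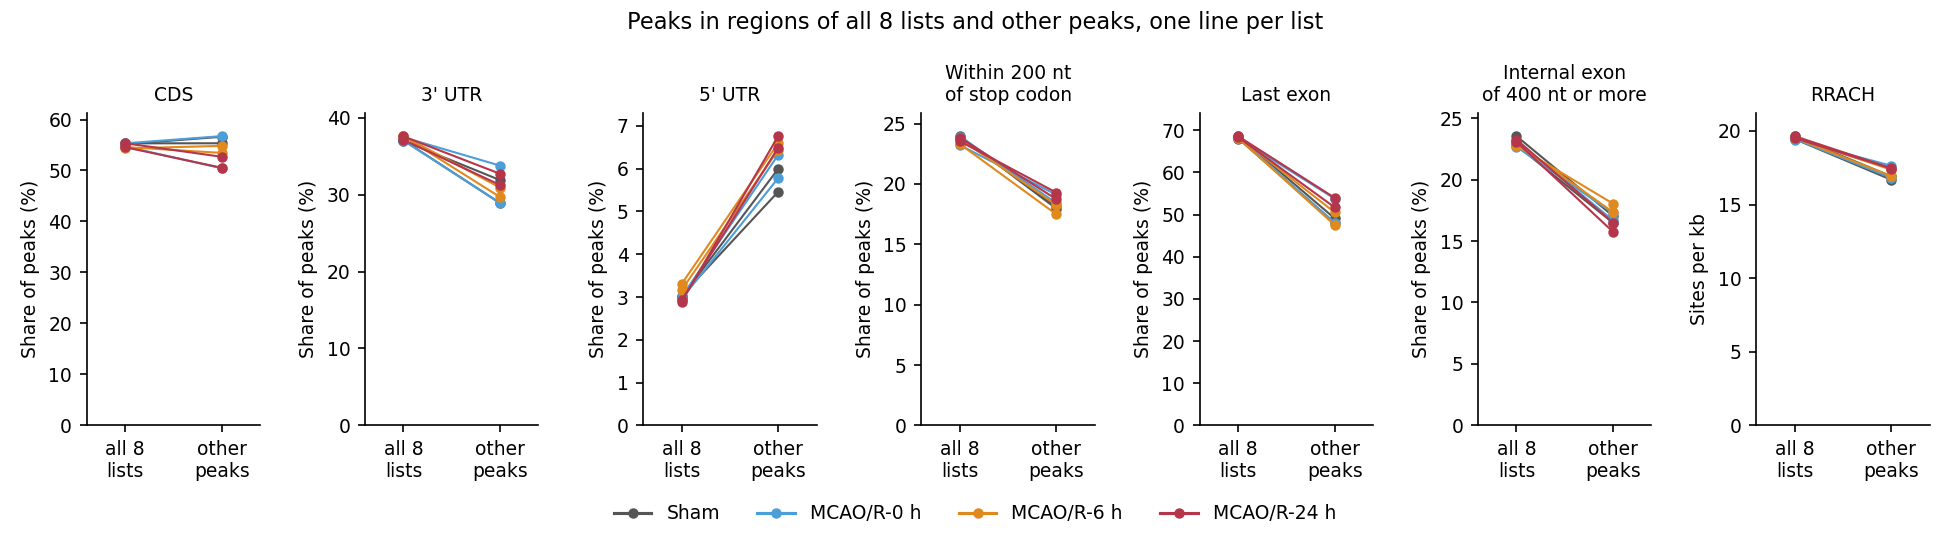
Each line joins, for 1 of the 8 lists, the value in peaks of regions found in all 8 lists with that in its other peaks; the vertical axes give the share of peaks in percent, or RRACH sites per kb in the last panel, and start at 0. The lines slope the same way for all lists in every panel except CDS, and the left-hand points lie close together because they are nearly the same regions.

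The stop codon itself lay inside many of the regions. Its first base was within the joined region in 1668 of 4450 regions of genes with a coding transcript (37.5%). Along the transcript the median centre lay at −609 nt from the stop codon, upstream of it, in regions found in 1 list and at −199.5 nt in those of all 8 lists.

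**Figure D2:**
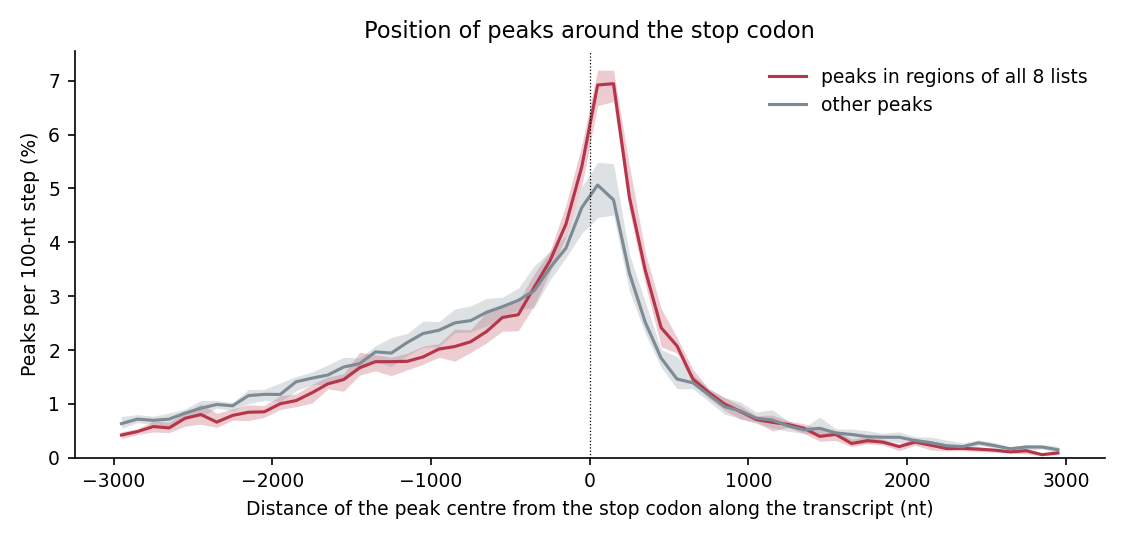
Share of peaks per step of 100 nt against the distance of the peak centre from the stop codon along the transcript, negative upstream, with the mean (line) and the range (band) over the 8 lists. Peaks in regions of all 8 lists rise higher than other peaks just downstream of the stop codon and lie below them further upstream in the coding sequence.

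Several measures rose at every step with the number of lists. From 1 list to 8, the share of regions centred in the last exon went from 39.4% to 65.1%, the median length of the exon from 789 to 2674 nt, the median length of internal exons from 171 to 945 nt, and the density of RRACH words from 15.1 to 18.5 per kb. Regions in first exons made up 9.71% of the former and 4.09% of the latter. The 3′ UTR share, from 26.3% to 38.9%, and the 5′ UTR share, from 7.87% to 3.24%, did not change in the same direction at every step. Of the members, 2799 lay in last exons, 1133 in internal exons, 194 in genes with a single exon and 176 in first exons. Joined length rose along the same axis, and its part in these values was not tested.

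**Figure D3:**
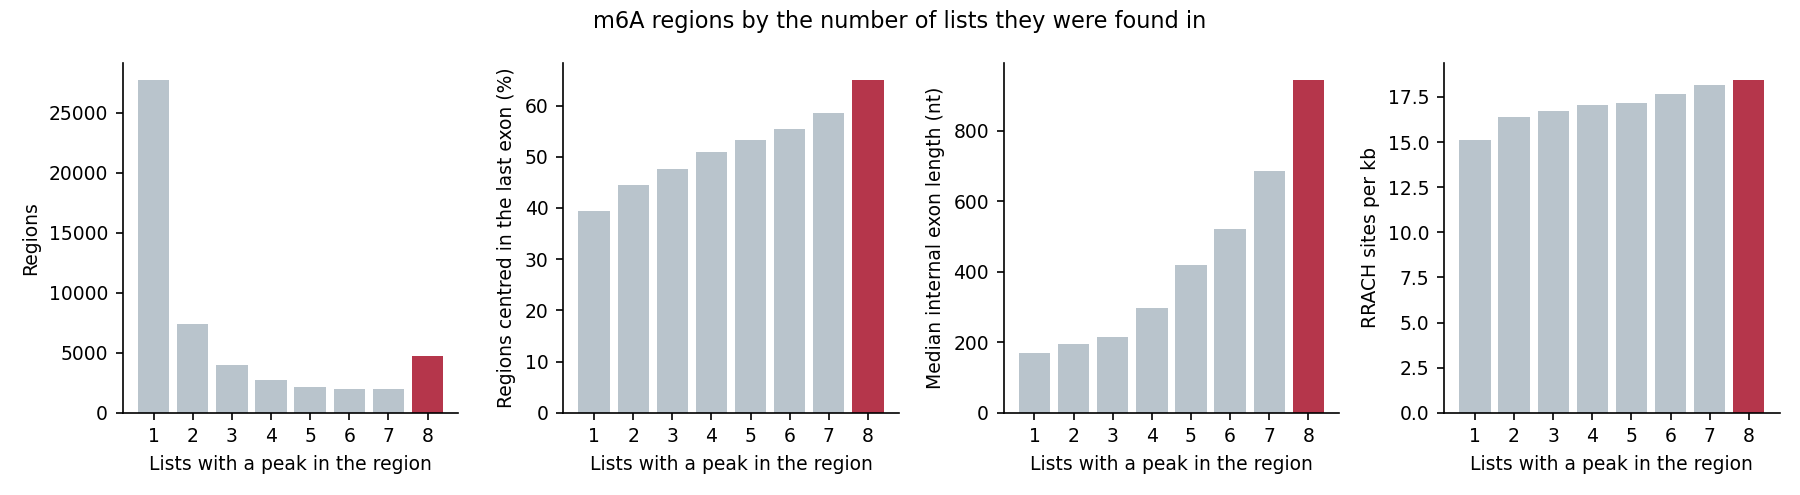
Bars give, for regions found in 1 to 8 lists, the number of regions, the share centred in the last exon, the median length of the internal exons that hold them and the RRACH density; the red bar is the regions of all 8 lists. The number falls up to 7 lists and is larger again at 8, while the other 3 measures rise at every step.

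RRACH words were denser in these regions, and the largest ratios were those of other words than GGACT. Peaks in regions of all 8 lists held 19.5 ± 0.0865 RRACH words per kb (SD, n = 8 lists) and other peaks 17.2 ± 0.360, a difference of 0.187 on the log2 scale with the same sign in all lists (two-sided exact sign-flip test, adjusted p = 0.00912). Between the means of the 8 lists the ratio was 1.31 for AAACT, 1.25 for AAACA and 1.23 for AAACC as well as for both AGACT and GAACT, against 1.06 for GGACT (1.52 against 1.44 per kb) and 0.936 for GGACC. In windows of fixed length, of 3777 windows of 100 nt centred on the bases common to all lists 15.3% held GGACT, of 106231 windows centred on other peaks 13.5%, and of 136023 tiles of the same genes outside every peak 8.18%. Over joined regions GGACT did not rise at every step with the number of lists. It went from 1.17 per kb in regions of 1 list to 1.55 in those of 6, and was 1.51 in 7 lists and 1.44 in all 8. RRACH words as a whole stood at 18.15 per kb in 7 lists and 18.46 in all 8. Each word was counted on the listed strand, with overlapping words counted separately.

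The share of genes with such a region differed widely between gene groups. Synaptic adhesion genes, cadherins and protocadherins, taken as 1 group, stood at the top, and ribosomes and mitochondria near the bottom. Of 141 genes for synaptic adhesion, cadherins and protocadherins with a peak, 91 had a region in all 8 lists (64.5%), beside 28.3% over all protein-coding genes with a peak. The share was 56.6% (43 of 76) for transcription factors of cortical neurons, 53.3% (24 of 45) for glutamate receptors and postsynaptic scaffolds, 50.4% (60 of 119) for histone-modifying and chromatin-remodelling enzymes, 50.2% (210 of 418) for Zfp zinc finger proteins, 46.5% (33 of 71) for axon guidance and 45.1% (32 of 71) for voltage-gated sodium, calcium and potassium channels. It was 33.3% both for presynaptic vesicle genes (17 of 51) and for ferroptosis, iron and antioxidant genes (7 of 21), 25% both for p53 and cell death (12 of 48) and for Wnt, mTOR and autophagy (18 of 72), 21.6% for hypoxia and vascular genes (11 of 51) and 20.9% for innate immune and NF-kB genes (14 of 67). Of 85 ribosomal protein genes 22 had a peak and 1, Rpl36al, had a region in all 8 lists, and of 89 subunits of oxidative phosphorylation 15 had a peak and 2 had such a region. Transcript length moved with these shares, with medians of 5340 nt for the adhesion genes, 6209 nt for the chromatin enzymes and 1329 nt for the ribosomal proteins, against 3865 nt for all genes with a peak, and its part was not tested. No list was set against chance.

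**Figure D4:**
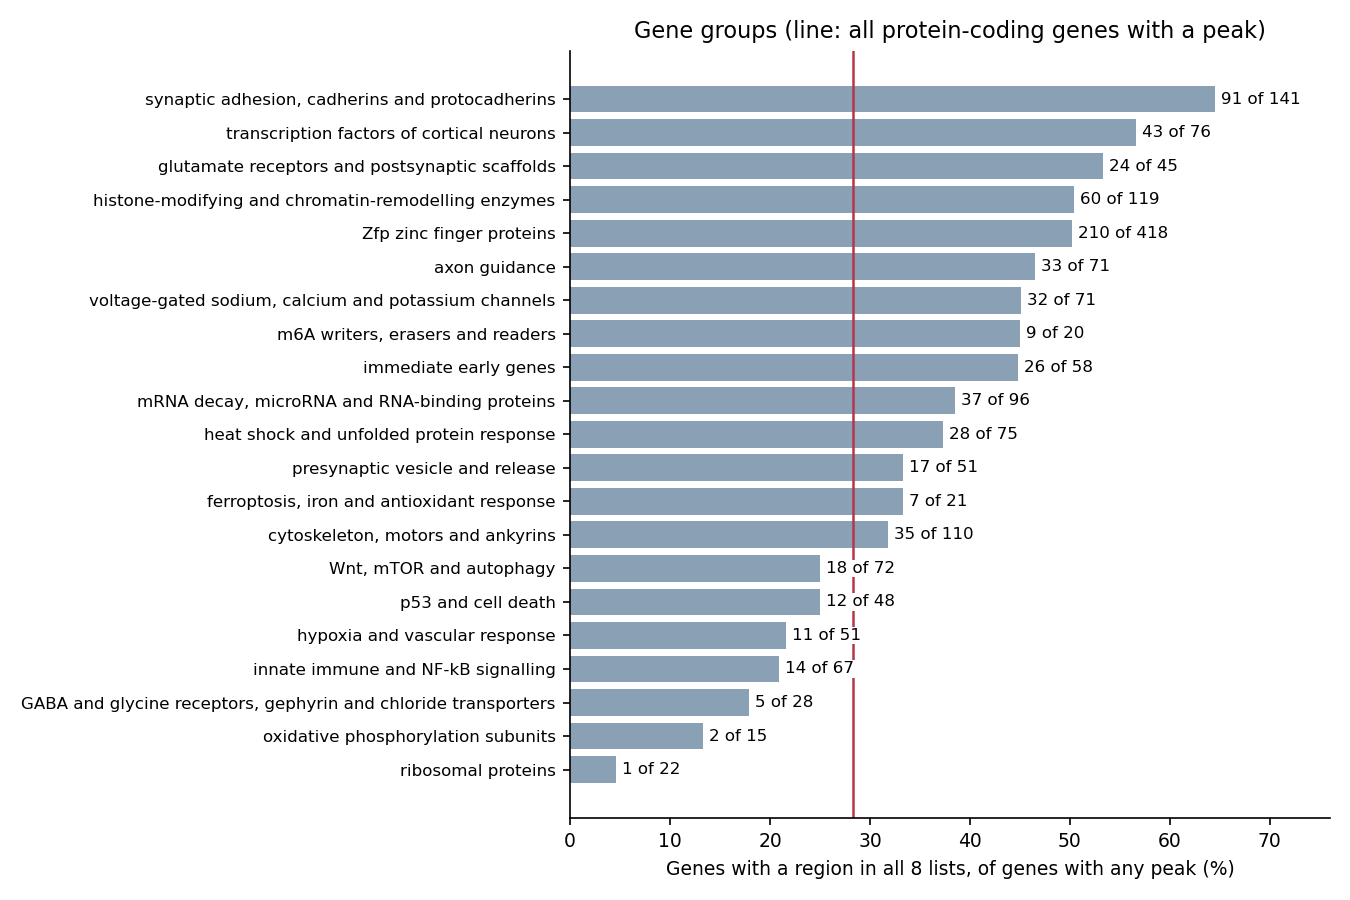
Bars give the percentage of the genes of a group with any peak that held a region in all 8 lists, with both counts beside them; the line marks 28.3%, the share over all protein-coding genes with a peak. Of the groups drawn, which leave out the cell type markers, adhesion genes stand highest at 64.5% and ribosomal proteins lowest at 4.55%.

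The genes named next are taken from the 2 with the highest lowest rank in each gene list, so that their narrow ranges near 100 follow from the choice. In receptors and channels of neurons the median lowest rank over all regions was 81.6 for the voltage-gated channels and 71.4 for the glutamate receptors and scaffolds, beside 63.6 over the regions of all protein-coding genes. Gria2, the AMPA receptor subunit that limits calcium entry, had a 3′ UTR region with rank percentiles from 99.58 to 99.86 over the 8 lists. Grm5, a metabotropic glutamate receptor, ranged from 98.2 to 99.8, and the voltage-gated sodium channels Scn1a and Scn9a ranged in their coding sequence from 98.8 to 99.9 and from 97.4 to 99.8. Pclo, a scaffold of the presynaptic active zone, ranged from 98.5 to 99.5 and Stxbp5, an inhibitor of vesicle release, from 96.7 to 99.5. The ephrin receptors Epha7 and Epha4, guides of growing axons, ranged from 99.5 to 99.8 and from 98.4 to 99.9. Of the 28 genes with a peak among GABA and glycine receptors, gephyrin and chloride transporters 5 had a region in all 8 lists (17.9%, beside 28.3% over all genes), with Gabrb2 from 94.6 to 98.9.

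In nuclear regulators the median lowest rank was 70.9 for the chromatin enzymes, 71.4 for the transcription factors of cortical neurons and 65.4 for the Zfp genes. Setd2, the methyltransferase that writes H3K36me3, ranged from 98.5 to 99.7 and the acetyltransferase Kat6a from 98.0 to 99.6. The transcription factors Zeb2, Rfx7 and Zfp292 ranged from 99.6 to 99.8, from 98.2 to 99.3 and from 99.7 to 99.9. All 5 regions lay in the coding sequence. In RNA metabolism, the helicase Ddx6 ranged from 97.9 to 99.7 and Smg1, the kinase of nonsense-mediated decay, from 97.5 to 99.4, both in the 3′ UTR.

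The leading members of the other groups follow. The motor Myo5a ranged from 98.0 to 99.0 and Ank2, which anchors membrane proteins to the cytoskeleton, from 97.5 to 99.0. Among signalling genes the cytokine co-receptor Il6st ranged from 93.8 to 97.5, Socs6 from 94.0 to 97.02, the autophagy kinase Ulk2 from 94.2 to 98.7 and the best region of Apc from 94.6 to 98.8. The matrix metalloproteinase Mmp16 ranged from 95.6 to 98.6 and the growth factor Vegfa from 89.0 to 95.7. Ier5, an immediate early gene, ranged from 92.9 to 99.3. Cox7a2l and Ndufa9, of the respiratory chain, stood between 58.7 and 82.3 and between 43.2 and 83.3, so that their spread over lists was wider than that of any of the others in this paragraph.

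The m6A machinery was itself marked. Of 20 genes for writers, erasers and readers with a peak, 9 had a region in all 8 lists (45%, beside 28.3% over all protein-coding genes with a peak). The median transcript was 5245 nt in these 20 genes against 3865 nt over all genes with a peak, and the part of length was not tested. The 9 genes held 20 regions, 16 of them in the coding sequence. The 9 were Ythdf1, Ythdf2 and Ythdf3, readers in the cytoplasm, and Virma, Wtap, Zc3h13, Cbll1, Rbm15 and Rbm15b, partners of the methyltransferase. Ythdf3 and Zc3h13 held the regions with the highest lowest rank, from 93.3 to 99.7 and from 92.4 to 97.2. The catalytic subunits were not among them: Mettl3 had a peak in 2 lists and Mettl14 in 6. The eraser Alkbh5 had a peak in 5 lists and the eraser Fto in none. The single Ythdf1 region, in its coding sequence, stood at 76.1 and 78.3 in Sham, 84.4 and 72.2 at 0 h, 78.8 and 78.2 at 6 h, and 77.2 and 58.4 at 24 h, so that the groups overlapped.

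Among cell death genes, Mdm4 and Mdm2, inhibitors of p53, had regions in all 8 lists, as had the anti-apoptotic genes Bcl2, Mcl1 and Xiap, whereas p53 itself (Trp53) had a peak in 2 lists. Mdm4 ranged from 95.25 to 97.25 in its coding sequence, and Tnfrsf19, a member of the TNF receptor family, from 89.7 to 98.9 in its 3′ UTR. Among ferroptosis and antioxidant genes the cystine transporter Slc7a11 and the regulators Nfe2l2, Keap1, Bach1 and Ireb2 had a region in all lists, and Gpx4, which reduces lipid peroxides, had no peak in any. Ireb2 ranged from 93.9 to 96.9 and Srxn1, which repairs oxidized peroxiredoxins, from 85.5 to 94.5.

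Of the defining markers of cortical cells few were members. None of 7 neuronal markers had a region in all 8 lists, and Snap25, Syt1 and Slc17a7 had no peak at all. Aqp4 and Gja1 of the astrocytes (2 of 5 with a peak), Pdgfra of the oligodendrocytes and precursors (1 of 4) and P2ry12 of microglia (1 of 4) had one, and none of 5 endothelial markers did. The share over all protein-coding genes with a peak was 28.3%. Gfap, Mag and Aif1 had no peak in any list. A gene without a peak is not thereby a gene without RNA, and RNA levels were not analysed here.

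Within a list the members stood high, as the rule favours strong peaks. The score that the authors' peak caller gave each peak has no stated scale, so a region is given by the rank percentile of its best peak among all peaks of the list, where 100 is the highest. The median over the members ran from 79.0 (Sham replicate 1) to 86.2 (MCAO/R-0 h replicate 2). Members made up 30.3% to 39.8% of the peaks of a list, 76.8% to 87.7% of its top 10% and 11.2% to 25.2% of its lower 50%. The share of peaks in the regions was 38.5% ± 1.72 in Sham, 33.8% ± 4.92 at 0 h, 33.0% ± 1.46 at 6 h and 36.2% ± 3.70 at 24 h (SD, n = 2 lists), and the difference among the groups did not pass the test (exact permutation over all divisions of the lists into 4 pairs, p = 0.457).

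Strength varied widely among the members. In 3091 regions the rank percentile exceeded 50 in every list, in 1674 it exceeded 75, in 673 it exceeded 90 and in 304 it exceeded 95. The 8 values of a region spanned a median of 27.2 points, under 10 points in 921 regions and over 50 points in 957. The 1184 regions with the highest lowest rank were longer, with a median of 700 nt joined and 275 nt common to all lists, than the 1184 with the lowest, with 500 and 25 nt, and 10 against 576 of them had no common base. The share in the coding sequence was 56.6% in the former and 51.8% in the latter.

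The region of Slitrk4, a synaptic adhesion protein, spanned 2925 nt of its coding exon and ranked from 99.98 to 100 in the 8 lists. Zhx1, a transcriptional repressor, ranged from 99.98 to 100, and Nlgn1, the postsynaptic partner of neurexins, from 99.91 to 99.98. Zfp451 ranged from 99.84 to 99.97, Arhgap5 (a RhoGAP) from 99.80 to 99.98, the transcription factor Klf9 from 99.76 to 99.90, Smim10l1 from 99.74 to 99.97 and Rpl36al from 99.71 to 99.95. In none of these 8 did a list fall below 99.71.

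At the edge of the rule, the members with the weakest best value were 4933427D14Rik, Pag1 and Cntn2, whose highest rank percentiles over the 8 lists were 40.4, 40.8 and 42.6 and whose lowest were 12.8, 10.1 and 1.88. On the other side, the strongest regions that a single list kept out were D5Ertd579e, Upf2 (a factor of nonsense-mediated decay) and Pakap. They had lowest rank percentiles of 99.2, 99.1 and 98.5 in the 7 lists that held them and lacked a peak there in Sham replicate 1, MCAO/R-24 h replicate 1 and MCAO/R-24 h replicate 2, although each gene had another peak in the missing list. Both sets are extremes: over all regions the median lowest rank percentile was 63.1 in the members and 35.6 in the regions of 7 lists. Of the 1958 regions in 7 lists, the list that lacked the peak was Sham replicate 1 in 383 and MCAO/R-0 h replicate 2 in 99, which were the shortest and the longest lists.

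No region passed the test of a difference in rank between groups. limma on the probit of the rank percentile, with all 4735 regions in 1 fit, called 0 regions (0%) among the 4 groups and 0 (0%) at each of the 3 reperfusion times against Sham at a Benjamini-Hochberg adjusted p of 0.05. At an unadjusted p under 0.05 there were 384 of the 4735 regions over the 4 groups, 303 at 0 h, 448 at 6 h and 393 at 24 h. The smallest adjusted p in each was 0.254, 0.532, 0.13 and 0.126. Of the regions under 0.05 at 0, 6 and 24 h, 242, 356 and 293 were higher than Sham. With regions ranked only among the members, 156 of 268, 229 of 417 and 197 of 381 were higher. Leaving out 1 list brought up a few regions, including Zfp955a over the 4 groups without Sham replicate 1 (adjusted p = 0.0499) and Prr14l over the 4 groups and at 24 h without MCAO/R-24 h replicate 2 (0.0347 and 0.0164). In Prr14l the lone remaining list, MCAO/R-24 h replicate 1, stood at 74.5 beside 99.81 to 99.97 in the other 7 lists.

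A shift common to all members has to be set aside before single regions are read. The median difference from Sham over the 4735 regions was 0.0939, 0.106 and 0.0927 probit units at 0, 6 and 24 h, and the MCAO/R lists were on average longer than the Sham lists. Ranked only among the members, the median was −0.0270, −0.0330 and −0.0172. Both lists of a group lay above both Sham lists in 1076 regions at 0 h (22.7%), 1239 at 6 h (26.2%) and 1185 at 24 h (25%), and below in 521 (11%), 644 (13.6%) and 631 (13.3%). Ranked among members the same counts were 777, 875 and 853 above and 853, 1030 and 929 below, so that the surplus of higher regions turned into a surplus of lower ones. All 6 MCAO/R lists lay above both Sham lists in 324 regions (6.84%) and below in 115 (2.43%), and ranked among members in 179 and 234. The 3 comparisons share the Sham lists.

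Among regions of protein-coding genes above both Sham lists, those with the 5 largest differences at each time were in Vwc2l, Hspa1a, Plppr5, Sik1, R3hcc1l, Ifit3b, Bag3 and Zfp874b, which are given as a description, since none passed the test. Hspa1a, the inducible Hsp70 chaperone, stood at 6.05 and 17.5 in Sham, 90.5 and 80.2 at 0 h, 71.0 and 95.6 at 6 h, and 86.7 and 89.4 at 24 h. All 6 MCAO/R lists were far above Sham, by 2.42 ± 0.437 probit units at 24 h (limma, SE, adjusted p = 0.204), but the region in the 3′ UTR had no base common to all lists and Hspa1a has a near-identical neighbour, Hspa1b. Bag3, a co-chaperone of Hsp70, stood at 13.7 and 17.8 in Sham, 19.7 and 52.3 at 0 h, 93.6 and 91.4 at 6 h, and 63.8 and 82.4 at 24 h. It was highest at 6 h, by 2.45 ± 0.442 (limma, adjusted p = 0.157).

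Ifit3b, an interferon-induced gene with close paralogs, stood at 2.55 and 6.17 in Sham, 56.8 and 58.7 at 0 h, 70.3 and 93.4 at 6 h, and 71.8 and 57.6 at 24 h, with 2.77 ± 0.476 at 6 h (limma, adjusted p = 0.137). Sik1, an activity-induced kinase, stood at 7.25 and 5.47 in Sham, 68.8 and 70.7 at 0 h, 85.2 and 78.0 at 6 h, and 0.0918 and 3.69 at 24 h. Its lists at 0 and 6 h were high and those at 24 h were at or below Sham. Vwc2l, a secreted protein of neurons, stood at 22.1 and 2.60 in Sham and from 69.2 to 93.0 in the 6 MCAO/R lists. Bag3, Sik1 and Vwc2l had no base common to all lists. The other regions named by the same rule, Plppr5, R3hcc1l and Zfp874b, had 1 Sham list far below the other, at 0.0720 and 52.9, 3.63 and 66.6, and 0.482 and 63.1.

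Several of the regions farthest below Sham were low in a single list. Ankrd27, a regulator of endosomal Rab proteins, stood at 74.1 and 69.2 in Sham, 60.5 and 58.7 at 0 h, 4.73 and 10.5 at 6 h, and 52.4 and 57.3 at 24 h, so that the MCAO/R-6 h lists alone were low, by −2.04 ± 0.439 (limma, adjusted p = 0.198). Dhx32, an RNA helicase, stood at 78.4 and 79.4 in Sham, 62.9 and 78.5 at 0 h, 29.5 and 38.7 at 6 h, and 1.99 and 19.3 at 24 h. It was lower at each later time, by −2.27 ± 0.512 at 24 h (limma, adjusted p = 0.316). Eif5b, a translation initiation factor, stood at 11.95 and 51.8 at 0 h and from 75.7 to 87.8 in the other 6 lists.

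Zfp72 stood at 62.5 and 85.6 in Sham and at 4.93 and 11.7 at 6 h, but its lists at 0 h were at 21.8 and 86.3. In Nexmif, Lrig2, Frmd4b, Myadml2, Maf and Mrps23, named by the same rule, 1 list was below 3 while its replicate lay between 9.02 and 63.1. Kcnq3, a potassium channel that carries the M-current, was the exception in level: it stood at 98.8 and 99.8 in Sham and 91.7 and 82.3 at 0 h. Pdzd2, Orc2, Agap1 and Cactin completed the group, with lists between 2.27 and 74.1 where they were named.

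**Figure D5:**
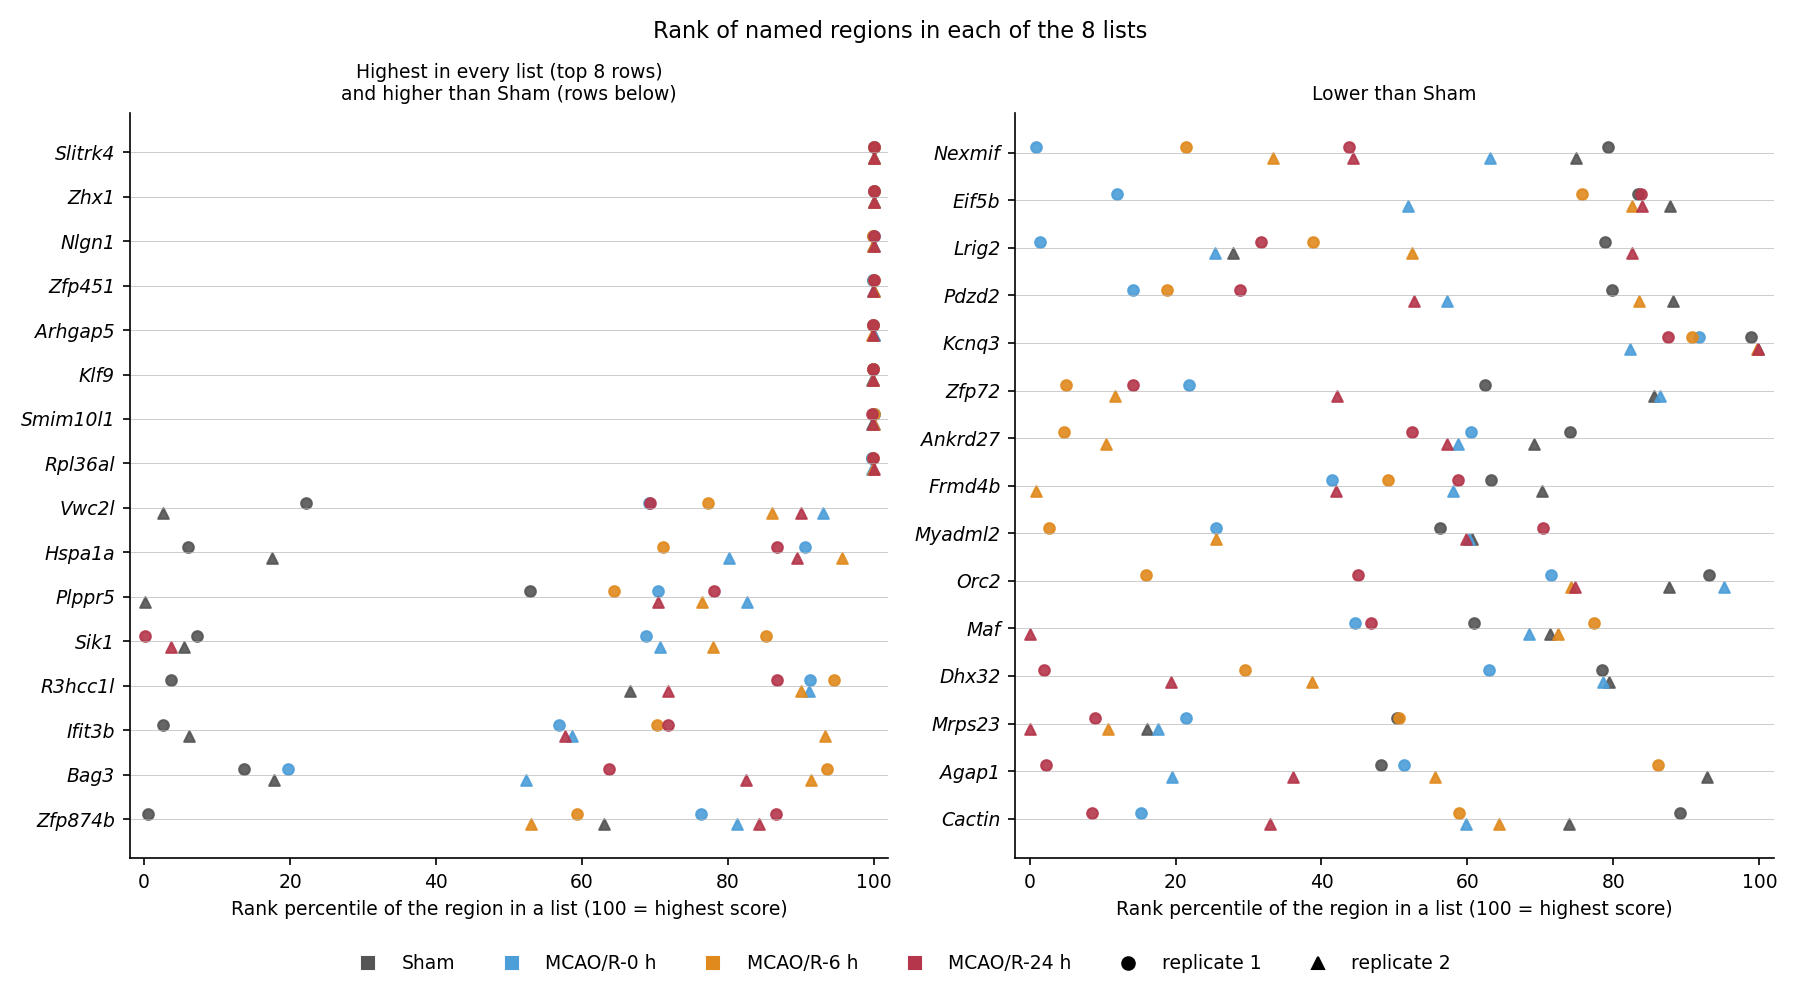
Rank percentile of named regions in each list (100 is the highest score of a list), with colours for the 4 groups and circles and triangles for replicates 1 and 2. The first 8 rows of the left panel lie above 99.7 in all lists; Hspa1a, Ifit3b and Vwc2l lie low in Sham and higher in all 6 MCAO/R lists, and in several rows of the right panel 1 list lies far below its replicate.

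By gene group, immediate early genes lay farthest above the common shift. Among the lists with more than 5 regions they had the highest median at each time. The median difference from Sham over their 30 regions was 0.287, 0.377 and 0.377 probit units at 0, 6 and 24 h, beside 0.0908, 0.107 and 0.0900 over the 4453 regions of protein-coding genes. At 6 h 15 of the 30 lay above both Sham lists and 3 below, read against 26.2% and 13.6% of all members. Ranked among members the counts were 13 and 5, read against 18.5% and 21.75% of all members on that scale. Csrnp1, a transcription factor induced by growth signals, stood at 34.02 and 35.5 in Sham, 62.3 and 47.7 at 0 h, 83.5 and 83.1 at 6 h, and 68.8 and 86.8 at 24 h. Klf4 stood at 78.0 and 60.8 in Sham and from 82.5 to 94.2 in the 6 MCAO/R lists. In Homer1, a postsynaptic scaffold with an activity-induced short form, the region in the 5′ UTR stood at 95 and 95.7 in Sham, 79.8 and 86.5 at 6 h, and 71.35 and 92.95 at 24 h, below Sham at both times. Csrnp1, Klf4 and Homer1 were chosen from the list after their values were seen.

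Heat shock and unfolded protein genes lay near the common shift at 0 h and above it later. Over their 36 regions the median was 0.0716 at 0 h, 0.316 at 6 h and 0.267 at 24 h. At 6 h 15 lay above both Sham lists and 8 below, read against 26.2% and 13.6% of all members. Ranked among members the counts were 12 and 8, read against 18.5% and 21.75% of all members on that scale. Bag4 ranged from 98.95 to 99.75 and Dnajb9, a chaperone of the endoplasmic reticulum, from 98.4 to 99.9. Both were named for the highest lowest rank in their list, so that their narrow ranges follow from the choice. Of the 1000 bases of the Bag4 region 569 were also covered by peaks on the opposite strand, where exons of the lncRNA Gm17484 lie. Zfp genes, which encode zinc finger proteins and share sequence among themselves, had 313 regions with a median of 0.240 at 24 h, of which 110 lay above both Sham lists and 22 below, and 85 and 36 when ranked among members, read against 25% and 13.3% of all members.

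Other groups lay below Sham or near it at 24 h, when 25% of all members were above both Sham lists and 13.3% below. The 46 regions of axon guidance genes had a median of −0.113, with 3 above and 13 below both Sham lists, and the 29 regions of glutamate receptor genes a median of −0.125, with 4 above and 10 below. The 55 regions of voltage-gated channels had −0.0443, with 7 above and 10 below, and the 20 regions of m6A genes −0.126, with 4 above and 5 below. The 32 regions of Wnt, mTOR and autophagy genes had −0.115, with 5 above and 6 below. The 167 regions of genes for synaptic adhesion, cadherins and protocadherins had 0.0260, with 34 above and 26 below. The 71 regions of transcription factors of cortical neurons had 0.0680, with 13 above and 12 below. Both medians lay under the 0.0900 over all protein-coding regions. Ranked among members they were −0.0781 (25 above, 43 below) and −0.0169 (6 and 15), beside −0.0227 over all protein-coding regions. The voltage-gated channels, glutamate receptors and axon guidance genes were at −0.143, −0.257 and −0.252 on that scale. These 5 groups differed in sign when ranked in the whole list and shared a sign when ranked among members. That sign was also the one over all protein-coding regions and was not particular to these groups. The m6A genes (−0.344) and the Wnt, mTOR and autophagy genes (−0.280) had it too. Among lists with more than 5 regions, immediate early, heat shock, Zfp and innate immune genes had the opposite sign, at 0.375, 0.199, 0.154 and 0.127. Of the astrocyte and microglia markers, Gja1 in the 3′ UTR stood at 83.5 and 85.4 in Sham and 55.7 and 78.3 at 24 h (limma, adjusted p = 0.678), and P2ry12 at 91.1 and 77.8 in Sham and 61.1 and 71.7 at 24 h. Aqp4 stood from 93.9 to 99.4 in all lists. Over the 3 regions of Aqp4 and Gja1 the median at 24 h was −0.551, with 2 below both Sham lists and 3 below when ranked among members. The ranks of a list depend on all its peaks, and the part of RNA abundance in these differences was not tested.

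As a whole, lists of the same group ranked the members slightly more alike than lists of different groups. The mean absolute difference in rank percentile was 11.4 ± 1.18 points over the 4 replicate pairs and 12.2 ± 1.15 over the 24 pairs of different groups (SD), a gap of 0.713 points (one-sided exact permutation test over all divisions of the lists into 4 pairs, p = 0.0476). The ranges overlapped, from 10.1 to 12.96 and from 9.83 to 14.1. Ranked only among the members the gap was 1.198 points, from 15.4 ± 0.461 to 16.6 ± 0.531, with p = 0.00952 in the same exact test, the smallest it can give. Without MCAO/R-6 h replicate 1 or 2 the gap shrank to 0.274 and 0.380 points (exact permutation p = 0.324 and 0.276), and without MCAO/R-0 h replicate 1 or MCAO/R-24 h replicate 1 or 2 p was 0.143, 0.171 and 0.0571, with gaps of 0.604, 0.559 and 0.781 points. Between Sham and the 3 times, members differed by 12.4 ± 1.11, 12.9 ± 1.04 and 12.95 ± 1.10 points over 4 pairs each.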

How the data were processed

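Trimming (Trim Galore 0.6.7), alignment to GRCm39 (HISAT2 2.2.1), read filtering (SAMtools) and peak calling (exomePeak2) were done by the authors, and the version of the peak caller is not given in the sources used here. The deposited value of each peak is a score on a scale that is not defined, and it was used here only as a rank within its list. The lists carry no counts.

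Exons were those of GENCODE M39 on GRCm39, with the stop codon counted as CDS. Exonic parts were rebuilt, because each peak is written as a single block across introns, and in each list 86.9% to 90.0% of such peaks then had a length divisible by 25 nt. The value of a region in a list was its best peak.

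Ranks were compared with limma 3.58.1 (R 4.3.3), with a trend, on probit ranks, in 1 fit over all regions. Other steps used Python 3.11.15, numpy 2.4.6, scipy 1.17.1, pandas 2.3.3, pysam 0.24.0 and matplotlib 3.10.9. Scripts were tested on simulated data. Transcript lengths and stop codons came from the transcript of a gene whose coding sequence was longest.

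The regions, the tests and the 26 gene lists were chosen with earlier results of these data known. The genes named were, by rule, protein-coding and given once per part: the 8 with the highest lowest rank; at each time the 5 farthest above and the 5 farthest below Sham among regions called or, with fewer than 5 called, among those whose lists did not overlap with Sham; the 8 with most regions; the 2 highest of each list; and 3 on either side of the rule. A few genes that this rule names are not reported here. Alternatives were another joining of peaks, other scales of the score, fewer peaks, other windows, and leaving out each list.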

Additional observations from a re-analysis of the deposited data

How the results depend on the processing

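Of 158 results recomputed under an alternative, 147 were counted as the same. For the likeness gap and the features this meant the same direction and side of the threshold. For limma it meant an equal number of called regions, and for the number of regions in all 8 lists a similar size. Keeping only the higher-scoring 50% of each list left 3089 regions in all 8 lists, and the other rules of joining or choosing peaks left between 3805 and 4764, while leaving out 1 list gave 4820 to 5136. The CDS share turned from 1.09 to −3.63 percentage points in the higher-scoring 50% and was 1.64 (adjusted p = 0.0234) against peaks of regions in 2 to 7 lists; the cause was not tested. The other 6 features kept sign and call under every alternative run. The members were not redrawn in these runs. As all 8 lists had the same sign, leaving out 1 list could not change the call of these 6 features. Those runs are among the 147 and say nothing on the choice of regions. The likeness gap ranged from 0.274 to 1.31 points when 1 list was left out, and lost its call in 5 of those 8 fits. limma called 0 to 1 region among the groups and 0 to 2 at 24 h when 1 list was left out, where a lone list is assumed to vary like the others.

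With the replicate number as a block limma called 0 regions, with 483, 366, 533 and 489 at an unadjusted p under 0.05 for the 4 groups and for 0, 6 and 24 h, and the likeness gap was 0.713 (exact permutation within replicate numbers, p = 0.0417, the smallest that 24 pairings can give). Deviations of same-numbered lists correlated between 0.0406 and 0.0841 over 6 pairs of groups, which is small but positive in each. Such values cannot tell whether same-numbered lists had a batch or a pairing in common. On the scale that ranks members among themselves limma called 0 regions, with 413, 268, 417 and 381 at an unadjusted p under 0.05. With 2 lists per group and no counts, precision comes from 2 values a group.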
